A study of Homo sapiens with 80 samples.

Results

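The response described here is that of U2OS cells expressing the A477T form of the glucocorticoid receptor (GR) after 4 h with the hormone dexamethasone. It was measured as 4 bead arrays of A477T cells in 100 nM dexamethasone for 4 h against 4 bead arrays of A477T cells that had ethanol, the solvent, for 4 h (labelled 0 h). These 8 arrays were taken by their sample titles from 80 arrays in the series. The series also holds A477T cells at 2 h and 24 h in the hormone, and GRalpha, GRgamma, 30iiB and E773R cells at the same 4 times, with 4 biological replicates a group. U2OS cells come from a human bone tumour and make hardly any GR themselves, so every group compared here, the ethanol controls included, carries an introduced receptor. The sources used here do not say whether the cells of an allele were 1 clone or a pool. Cells were kept in medium with 5% fetal bovine serum, which can itself hold steroids.

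GR is a nuclear receptor that stays in the cytoplasm with chaperones until a glucocorticoid binds it, and then acts in the nucleus. On many target genes it binds as a dimer to a palindrome of paired arms, and on others it acts through other bound factors such as AP-1 and NF-kB, often lowering their transcription. A477T, named in the numbering of the rat receptor, replaces an alanine in the dimer interface of the DNA-binding domain. GRalpha is the main form of the receptor in most tissues. GRgamma is spliced so that its DNA-binding domain gains an arginine, and 30iiB and E773R are altered in the N-terminal and the hormone-dependent activation functions.

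The 8 arrays had median raw signals between 97 and 581 and detected between 13703 and 15991 of 25204 probes. Over all 80 arrays the medians ran between 82 and 925.75. The A477T 4 h arrays lay on slides 3, 10, 6 and 5 and the A477T 0 h arrays on slides 3, 6, 1 and 4, so slides 3 and 6 held an array of each group. Levels below are normalized log2 signals of 1 probe a gene, and changes are differences of these with SEs from a limma model of all 80 arrays. A gene is said to rise or fall only at a two-sided Benjamini-Hochberg adjusted p under 0.05 over 12547 genes, and p-values measure the spread between replicate cultures. Of 13 measured mesenchymal and osteosarcoma markers none passed the test (summed linear signal 69790 to 121200 on the 4 h arrays, against 85750 to 90720 on the 0 h arrays), and 1 was detected on no array of either group. The 6 blood markers (503.7 to 765.3 at 4 h, 650.5 to 795.5 at 0 h) and 9 epithelial markers (2089 to 2922 at 4 h, 1927 to 2489 at 0 h) also held no called gene, and COL1A1 stood at 13.74 at 4 h and 13.76 at 0 h. Of 6 liver markers (4103 to 10720 at 4 h, 3321 to 8721 at 0 h) 1 rose. With 3.33% of all genes called, lists of this size could hold none by that share alone. Of the 4 control arrays, 0 h replicate 3 held the highest level for 93 of the 177 genes that fell, against 28, 22 and 34 for 0 h replicates 1, 2 and 4, and the part of that array in the falls was not tested beyond leaving it out. Without it, 229 genes rose and 124 fell.

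At 4 h 418 of 12547 genes had changed in A477T cells by limma (3.33%). Of these, 241 rose (1.92% of genes tested) and 177 fell (1.41%). The median change was 1.53 over the rises and -1.27 over the falls. At least 8-fold changes were seen for 29 of the genes that rose and for 1 that fell, BDNF. The rises started from low signals, with a median level of 8.8 at 4 h and 6.65 at 0 h, while falling genes had 8.66 at 4 h and 10.2 at 0 h. Among the genes that rose, 72 of 241 (29.9%) were detected on no 0 h array, compared with 10.1% of all genes tested, and 39 of them were detected on all 4 arrays at 4 h. Of the 177 falls 0 were undetected in that way, since a gene at background can hardly be called lower. Genes undetected at 0 h passed the detection filter only through other arrays, the 4 h arrays among them. How far the filter and the split by direction make this excess and the low start was not tested. The 4 h and 0 h arrays did not overlap for 209 of the 241 rises and 163 of the 177 falls, where 7.74% of all genes had no overlap (3.51% higher, 4.23% lower). Within slide 3, 235 of the 241 rises were higher at 4 h and 176 of the 177 falls lower, and within slide 6 the numbers were 239 and 177. These arrays also gave the calls, so such numbers were largely fixed in advance and are no separate check on slides.

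**Figure D1:**
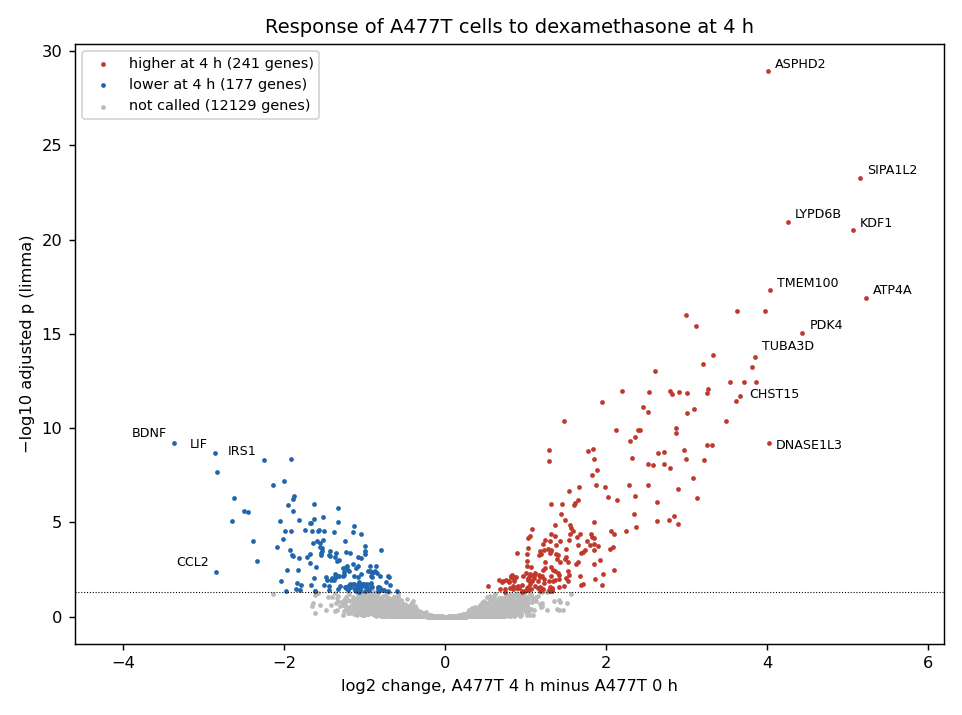
Log2 change of each of 12547 genes in A477T cells at 4 h (horizontal, 4 h minus 0 h) against -log10 of the limma adjusted p (vertical); red points rose (241), blue points fell (177) and the dotted line marks the threshold of 0.05. The right arm reaches 5.22 (ATP4A) and the left arm -3.37 (BDNF).

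The largest rise was that of ATP4A, the catalytic subunit of the gastric proton pump. ATP4A had levels of 10.23, 10.46, 11.24 and 11.26 in A477T cells at 4 h, against 5.05, 5.78, 5.21 and 6.27 at 0 h. It rose by 5.22 (SE 0.38, 37.3-fold, adjusted p = 1.21e-17 by limma), and was detected on 2 of the 4 control arrays. SIPA1L2, a relative of GTPase-activating proteins for Rap, had 10.84, 11.16, 10.98 and 11.88 at 4 h, against 6.29, 5.75, 6.08 and 6.15 at 0 h. Its change was 5.15 (SE 0.277, adjusted p = 5.03e-24). KDF1, a regulator of keratinocyte differentiation, had 10.23, 10.76, 10.22 and 9.92 at 4 h and was detected on no 0 h array, which makes it at least 19.8-fold higher (adjusted p = 3.15e-21). All 3 genes were near the background without hormone and in the middle of the signal range with it, and their groups lay far apart.

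PDK4, the kinase that inhibits the pyruvate dehydrogenase complex and a well known GR target, had 9.65, 10.92, 9.81 and 10.24 at 4 h, against 5.83, 5.30, 6.44 and 5.31 at 0 h (change 4.44, SE 0.358, adjusted p = 8.95e-16). It was detected on 1 of the 4 control arrays. The Ly6-domain gene LYPD6B had 9.36, 8.53, 9.52 and 9.86 at 4 h and was detected on no 0 h array, at least 10.2-fold higher. DNASE1L3, a secreted nuclease, had 9.77, 7.62, 9.50 and 8.85 at 4 h, again with no detection at 0 h, and was at least 7.77-fold higher. Its 4 h arrays had the widest spread among the 12 largest rises, a group limited by rule to genes whose arrays did not overlap. CHST15, a sulfotransferase of chondroitin sulfate, had 9.07, 8.79, 9.53 and 9.10 at 4 h and no detection at 0 h, at least 8.87-fold higher (adjusted p = 3.62e-13).

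Other genes rose from a level already well above background. ASPHD2, which encodes an aspartate beta-hydroxylase domain, had 14.24, 14.53, 14.00 and 14.32 at 4 h, against 10.48, 10.15, 10.20 and 10.24 at 0 h, and had the smallest adjusted p of the 76 genes named by rule (change 4.00, SE 0.17, adjusted p = 1.15e-29). TMEM100, a membrane protein of BMP-responsive endothelium, had 12.35, 12.64, 12.68 and 12.58 at 4 h, against 8.57, 8.65, 7.92 and 8.99 at 0 h (change 4.03, SE 0.287). OR7A5, an olfactory receptor gene, had 11.10, 12.17, 11.70 and 11.58 at 4 h, against 7.50, 7.50, 8.60 and 7.68 at 0 h (change 3.81, SE 0.34). In these genes every array with hormone exceeded every control array, which the rule for naming them required. PIWIL1, a germline protein that binds small RNAs, rose by 3.97 (SE 0.301). TUBA3D, an alpha tubulin isotype, rose by 3.85 (SE 0.333), and its probe may also read the close copy TUBA3E.

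**Figure D2:**
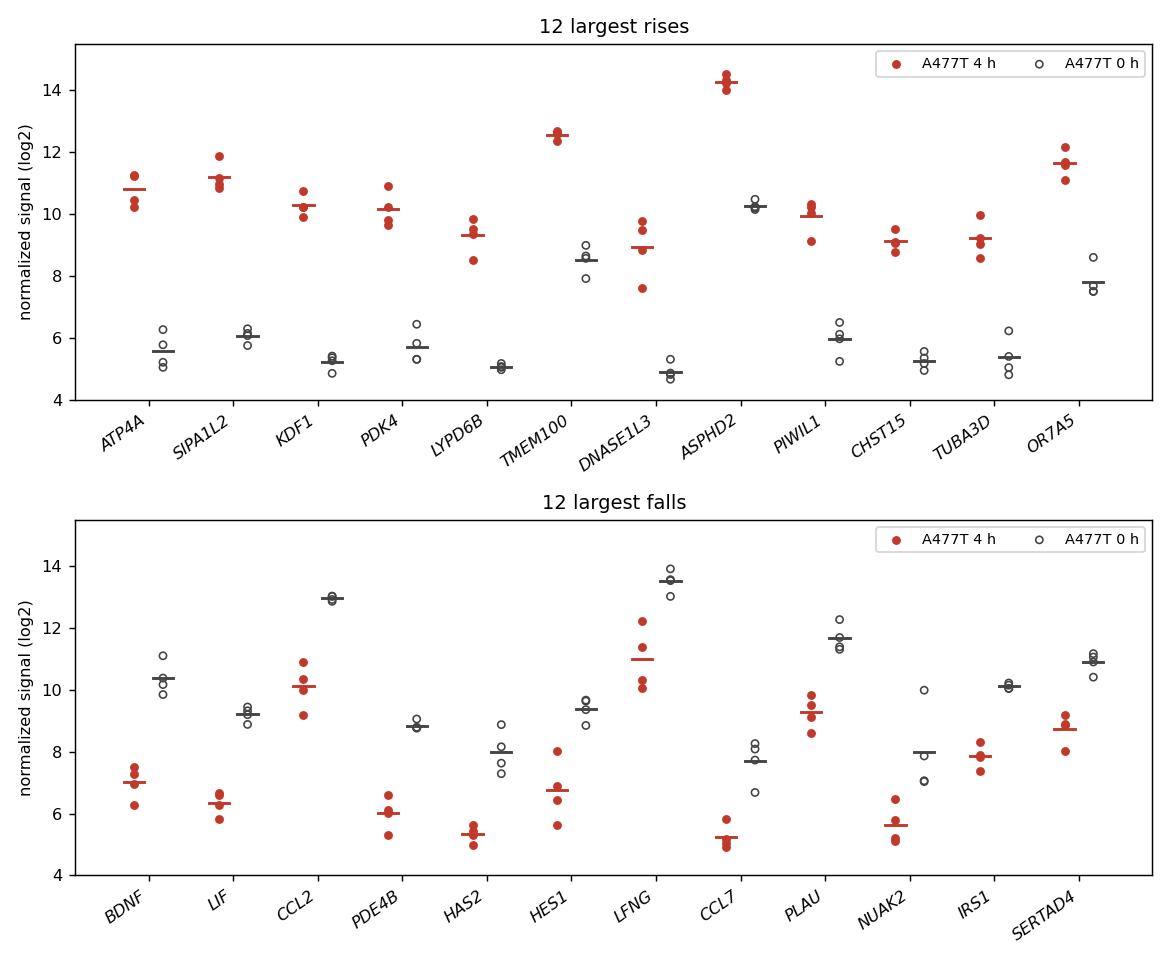
Normalized log2 signal (vertical) on each A477T array for the 12 largest rises (top) and the 12 largest falls (bottom); filled red points are the 4 h arrays, open points the 0 h arrays and bars the group means. The groups do not overlap for any of the 24 genes, which the rule for naming them required.

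Promoter windows of 300 bases (250 before and 50 from the gene start, RefSeq, GRCh38.p14) were available for 183 of the 241 genes that rose and 143 of the 177 that fell. They were searched on both strands for the core of the GR palindrome (GNACA and TGTNC with 3 bases between), for the single arm AGAACA, which shares letters with the core, and for the AP-1 letters TGANTCA. The palindrome core stood in 3 promoters of genes that rose (1.64%) and in 1 of a gene that fell (0.699%), against 0.236% of the promoters of all genes tested and 0.388% of all 27305 promoters. The single arm stood in 12.6% of the promoters of rising genes and 6.99% of those of falling genes, against 9.47% of the promoters of genes tested and 14.9% of all promoters. AP-1 letters were present in 6.56% of rising and 4.2% of falling genes, against 5.16% of the promoters of genes tested and 7.76% of all promoters. A match is a description of the letters and not a site of binding. The windows of the core carriers OR7A5 (chr19:14835136-14835435, minus strand), TXNIP (chr1:145996530-145996829, minus strand) and EVA1A (chr2:75569670-75569969, minus strand) are printed with the core in capitals, and that of PDK4 (chr7:95596467-95596766, minus strand) with its single arm in capitals, shown because it was a large rise.
OR7A5: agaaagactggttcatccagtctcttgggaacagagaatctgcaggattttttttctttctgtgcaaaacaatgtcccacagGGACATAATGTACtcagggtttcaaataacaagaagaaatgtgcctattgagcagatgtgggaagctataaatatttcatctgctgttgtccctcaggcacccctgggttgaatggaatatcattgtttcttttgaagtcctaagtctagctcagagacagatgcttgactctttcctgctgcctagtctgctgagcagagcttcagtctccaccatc
TXNIP: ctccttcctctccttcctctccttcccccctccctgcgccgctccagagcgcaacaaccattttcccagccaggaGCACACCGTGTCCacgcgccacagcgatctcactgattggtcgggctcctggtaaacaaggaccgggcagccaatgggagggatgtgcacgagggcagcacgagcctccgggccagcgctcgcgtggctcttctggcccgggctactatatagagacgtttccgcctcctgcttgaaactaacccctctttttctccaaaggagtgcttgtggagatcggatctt
EVA1A: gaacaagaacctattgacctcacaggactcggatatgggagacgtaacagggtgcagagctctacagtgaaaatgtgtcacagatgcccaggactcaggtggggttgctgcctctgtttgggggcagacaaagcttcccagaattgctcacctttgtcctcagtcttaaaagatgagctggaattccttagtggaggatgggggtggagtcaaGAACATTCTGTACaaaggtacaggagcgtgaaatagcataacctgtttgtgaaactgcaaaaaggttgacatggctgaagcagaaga
PDK4: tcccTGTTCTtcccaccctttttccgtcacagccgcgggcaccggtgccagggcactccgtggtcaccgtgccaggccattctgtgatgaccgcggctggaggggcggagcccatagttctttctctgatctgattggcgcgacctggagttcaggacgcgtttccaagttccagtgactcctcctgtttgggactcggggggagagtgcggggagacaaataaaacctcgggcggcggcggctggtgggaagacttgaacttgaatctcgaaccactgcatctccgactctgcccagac
In OR7A5 the core began at position -168 from the gene start, in TXNIP at -175 and in EVA1A at -37, and the PDK4 arm began at -246. EVA1A, a regulator of autophagy and apoptosis, was the carrier that fell, by 1.89 (SE 0.296, adjusted p = 2.46e-06). The third carrier that rose was HLA-DPA1, an MHC class II gene (change 1.36, SE 0.23, adjusted p = 1.45e-05); EVA1A and HLA-DPA1 are named because of these letters, after their values were seen.

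Among the genes that fell, BDNF, a neurotrophin, changed most. The BDNF probe tested had 7.52, 6.27, 6.97 and 7.27 in A477T cells at 4 h, against 10.17, 9.85, 11.10 and 10.38 at 0 h (change -3.37, SE 0.39, adjusted p = 5.88e-10). Of 5 other BDNF probes, which were dimmer, all were lower at 4 h, between -0.08 and -1.69. The cytokine LIF had 5.83, 6.59, 6.28 and 6.68 at 4 h, against 9.45, 8.88, 9.20 and 9.32 at 0 h (change -2.87, SE 0.346, adjusted p = 2.08e-09). The groups were far apart for both genes, and LIF was at the edge of detection with hormone.

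Secreted signals and matrix genes were among the 12 largest falls. CCL2, a chemokine for monocytes, had 9.99, 9.20, 10.35 and 10.90 at 4 h, against 13.03, 13.02, 12.86 and 12.92 at 0 h (change -2.85, SE 0.679, adjusted p = 0.00428). Its control arrays were close together, and its SE was the largest of the 76 genes. CCL7, a neighbouring chemokine gene, was detected on no 4 h array and had 8.09, 7.73, 6.68 and 8.26 at 0 h, at least 2.99-fold lower. HAS2, which makes hyaluronan, was likewise undetected at 4 h and had 7.29, 7.63, 8.88 and 8.16 at 0 h, at least 3.68-fold lower, but a second HAS2 probe of similar mean brightness moved by 0.43 (SE 0.306). PLAU, the urokinase protease, had 9.51, 8.60, 9.12 and 9.84 at 4 h, against 11.39, 11.31, 12.27 and 11.69 at 0 h (change -2.40, SE 0.449).

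PDE4B, which breaks down cyclic AMP, had 5.29, 6.59, 6.02 and 6.12 at 4 h, against 8.77, 8.76, 9.06 and 8.79 at 0 h (change -2.84, SE 0.371), and its second probe changed by -1.85. HES1, a repressor downstream of Notch, had 8.03, 5.62, 6.46 and 6.91 at 4 h, against 9.67, 9.36, 8.85 and 9.64 at 0 h (change -2.63, SE 0.385). LFNG, a glycosyltransferase that modifies Notch, had 12.21, 10.06, 11.39 and 10.33 at 4 h, against 13.91, 13.56, 13.02 and 13.53 at 0 h (change -2.51, SE 0.392). Other LFNG probes, which were dimmer, changed by -1.11 and -1.55. HES1 and the tested LFNG probe spread more over the 4 h arrays than over the controls. IRS1, the adaptor of the insulin receptor, had 7.39, 7.84, 7.90 and 8.33 at 4 h, against 10.22, 10.05, 10.15 and 10.04 at 0 h (change -2.25, SE 0.28). SERTAD4 fell by 2.15 (SE 0.297). NUAK2, a kinase related to AMPK, fell by 2.35 (SE 0.508, adjusted p = 0.0011), but 0 h replicate 3 held 9.99 against 7.03 to 7.86 on the other controls, and without it the change was -1.68 (adjusted p = 0.0535).

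**Figure D3:**
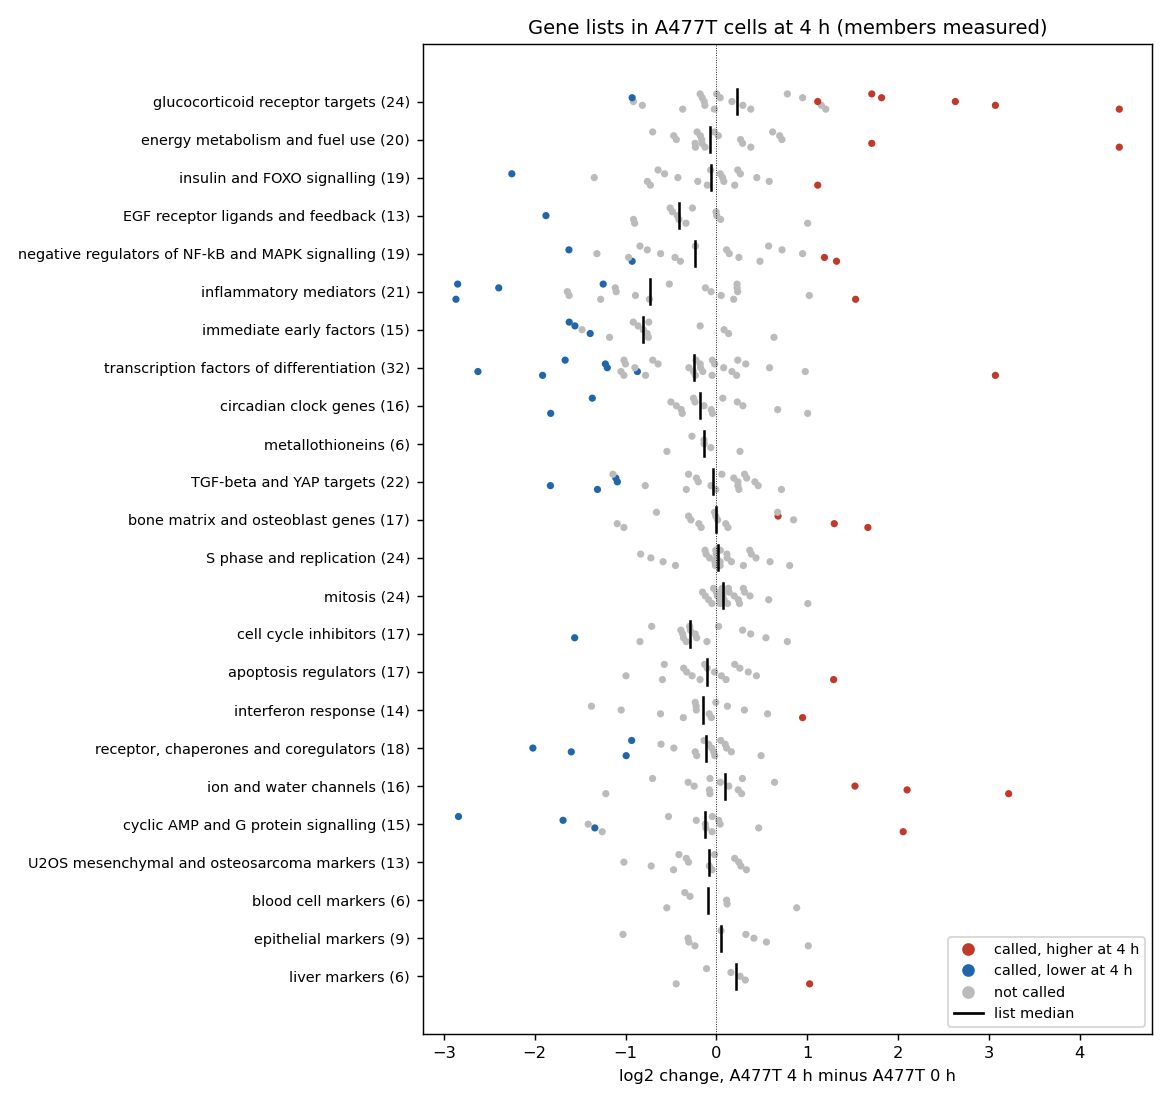
Log2 change at 4 h in A477T cells (horizontal) of the measured members of 24 gene lists (rows, number measured in brackets); red and blue points were called higher or lower, grey points were not called, and black ticks are list medians. The lists of glucocorticoid receptor targets and of ion and water channels have points at the far right, and the inflammatory and immediate early lists have medians of -0.736 and -0.805.

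Over all genes tested 1.92% rose and 1.41% fell in A477T cells at 4 h. The list counts here and below are to be read beside these shares, and the lists were written with earlier results of these data known. Of 24 known GR targets measured, 6 rose and 1 fell, with a median change of 0.232 against -0.00901 over all genes. With arrays scaled to the same median 4 rose and none fell, and without 0 h replicate 3, 5 rose and none fell. In GRalpha cells 11 of the 24 rose and none fell (median 1.09), in a comparison where 4.73% of genes were called (2.81% higher, 1.92% lower). ZBTB16, a zinc finger repressor, had 9.05, 7.97, 8.20 and 7.91 in A477T cells at 4 h and was detected on no 0 h array, at least 4.96-fold higher (adjusted p = 4.62e-08). Of its other probes, the second changed by 2.16 and the third by -0.09. LAD1, a basement membrane filament protein, rose by 2.63 (SE 0.434), and CRISPLD2, a secreted protein, by 1.82 (SE 0.331). TXNIP, the inhibitor of thioredoxin, had 9.38, 9.39, 9.82 and 10.13 at 4 h, against 7.35, 8.78, 7.11 and 8.63 at 0 h (change 1.71, SE 0.467, adjusted p = 0.019). SGK1, a kinase that regulates sodium transport, had 13.51, 13.69, 13.56 and 14.02 at 4 h, against 12.32, 12.22, 13.13 and 12.64 at 0 h (change 1.12, SE 0.312, adjusted p = 0.0238). Each of these last calls was lost on leaving out any of 4 single arrays, TXNIP without 4 h replicates 3 or 4 or 0 h replicates 1 or 3 (1.43 to 1.66, adjusted p up to 0.15) and SGK1 without 4 h replicates 2 or 4 or 0 h replicates 1 or 2 (0.998 to 1.12, adjusted p up to 0.11).

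Several standard GR markers did not pass the test in A477T cells. TSC22D3, the leucine zipper gene also called GILZ, had 11.25, 10.73, 10.81 and 11.62 at 4 h, against 10.30, 9.93, 9.89 and 10.50 at 0 h. Every hormone array lay above every control, yet the change of 0.95 (SE 0.351) had an adjusted p of 0.175, and its other probes stood at 0.86 and 0.88. With the deposited log2 values it was called, as it was with the replicate number as a block (adjusted p = 0.0429). Over all alternatives its adjusted p ran between 0.00379 and 0.774. The clock gene PER1 changed by 0.29 (SE 0.347) and the Krüppel-like factor gene KLF9 by -0.18 (SE 0.296), both with overlapping groups. DUSP1, a phosphatase of MAP kinases, fell by 0.93 (SE 0.258, adjusted p = 0.0234), with 12.10, 11.87, 12.09 and 12.37 at 4 h, against 12.94, 12.59, 13.65 and 12.97 at 0 h. That call was lost without 4 h replicates 1, 2 or 3 or 0 h replicate 3 (-0.92 to -0.72, adjusted p up to 0.215). None of 6 measured metallothioneins, which bind metals and are induced by glucocorticoids in many cells, passed the test (median -0.135), while in GRalpha cells 2 rose (median 0.799). FKBP5 was not measured by a kept probe.

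Of 21 inflammatory mediators 4 fell (LIF, CCL2, PLAU and PLAUR) and 1 rose, with a median of -0.736. The riser was IL1B, interleukin 1 beta, with 7.03, 7.33, 6.86 and 7.78 at 4 h, against 5.36, 4.99, 7.09 and 5.42 at 0 h (change 1.53, SE 0.285, adjusted p = 9.17e-05). Its groups overlapped, because 0 h replicate 3 held 7.09. With arrays scaled to the same median 4 of the mediators fell and none rose. CXCL8, IL1A and TNF stood at -1.27, -1.62 and -1.64 with SEs of 0.941, 0.972 and 0.611 and did not pass. Of 15 immediate early factors 3 fell (PIM1, IER2 and JUNB) and none rose, with a median of -0.805, and FOS stood at 0.63 (SE 0.473). PIM1, a survival kinase, fell by 1.56 (SE 0.295), while JUNB (change -1.62, SE 0.483) lost its call without any of 6 single arrays (4 h replicates 2, 3 and 4, 0 h replicates 1, 3 and 4), with adjusted p up to 0.251, and IER2 (-1.39, SE 0.36) without 4 h replicate 2 (adjusted p = 0.126). HBEGF, a ligand of the EGF receptor, was the 1 of 13 EGF ligand and feedback genes called, at 10.21, 10.38, 10.12 and 10.38 at 4 h, against 12.16, 12.13, 12.10 and 12.21 at 0 h (change -1.88, SE 0.272). Both HBEGF groups were tight and well apart.

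Of 19 genes that restrain NF-kB or MAPK signalling, 2 rose and 2 fell, and none was called in either direction without 0 h replicate 3 or with arrays scaled to the same median. ZFP36, which destabilises cytokine mRNAs, stood at 1.32 (SE 0.378) and SOCS1, a brake on cytokine receptors, at 1.19 (SE 0.343), each called with all arrays (adjusted p = 0.029 and 0.0308). ZFP36 lost its call without 4 h replicates 1, 3 or 4 or 0 h replicates 1, 2 or 3 (1.16 to 1.35), and SOCS1 without 4 h replicates 1 or 2 or 0 h replicates 2, 3 or 4 (0.997 to 1.18). DUSP5 stood at -1.62 (SE 0.487, adjusted p = 0.0436), with overlapping groups, and was not called without 4 h replicates 2, 3 or 4 or 0 h replicates 1, 3 or 4 (-1.68 to -1.20). These regulators are therefore given as values only.

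Of 32 factors of differentiation, 6 fell and 1, ZBTB16, rose, with a median of -0.242. RUNX3 had 8.65, 8.24, 9.12 and 8.85 at 4 h, against 10.57, 10.74, 10.32 and 10.88 at 0 h (change -1.91, SE 0.334). RUNX1 had 9.68, 9.04, 9.16 and 8.77 at 4 h, against 10.69, 10.72, 11.01 and 10.88 at 0 h (change -1.67, SE 0.278). Both encode runt-domain factors of blood and bone lineages, their arrays did not overlap, and their dimmer second probes changed by -0.78 and -0.40. Of 16 clock genes 2 fell, the repressors BHLHE40 (change -1.82, SE 0.298) and BHLHE41 (-1.37, SE 0.332, not called without 0 h replicate 3, adjusted p = 0.0598). GADD45B, a stress-response gene, was the 1 of 17 cell cycle inhibitors called (-1.56, SE 0.303), though not with the arrays of the compared groups alone (adjusted p = 0.0702). None of 24 S phase genes (median 0.0225) and none of 24 mitotic genes (median 0.0778) passed the test. With 1.92% of all genes higher and 1.41% lower, lists of this size could hold none by those shares alone.

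The receptor's own gene was lower. NR3C1 had 5.98, 4.92, 6.01 and 5.90 in A477T cells at 4 h, against 8.04, 7.48, 7.48 and 7.89 at 0 h (change -2.02, SE 0.372, adjusted p = 7.83e-05), and its second probe stood at -0.47 (SE 0.307). Whether either probe reads the introduced receptor was not tested. NR3C2, the mineralocorticoid receptor, had 7.25, 7.89, 7.95 and 7.51 at 4 h, against 9.12, 9.23, 9.51 and 9.14 at 0 h (change -1.60, SE 0.299). Of 18 receptor, chaperone and coregulator genes these 2 fell together with the heat shock genes DNAJB1 (-0.99, SE 0.204) and HSPA1B (-0.93, SE 0.211), and none rose. HSPA1B shares almost its whole sequence with HSPA1A, whose probe stood at -0.47 (SE 0.453).

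Of 16 ion and water channel genes 3 rose and none fell. KCNJ4, an inward rectifier potassium channel, had 9.26, 8.84, 9.22 and 9.11 at 4 h, against 5.97, 6.13, 5.70 and 5.76 at 0 h (change 3.22, SE 0.4). Its relative KCNJ2 rose by 1.53 (SE 0.362). CACNA1I, a T-type calcium channel, had 7.88, 5.95, 8.30 and 7.17 at 4 h and was detected on no 0 h array, at least 2.55-fold higher, while its dimmer second probe stood at 0.14. RGS2, which shuts off G protein signals, rose by 2.06 (SE 0.36), whereas RGS4, of the same family, fell by 1.69 (SE 0.373). ADRA1B, an adrenergic receptor, fell by 1.34 (SE 0.39, adjusted p = 0.0344), which no longer passed without any of 6 single arrays (4 h replicates 2 and 4 and each 0 h replicate, -1.39 to -1.07).

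Among 22 targets of TGF-beta and YAP, 4 fell and none rose (median -0.0327), where 1.41% of all genes fell and 1.92% rose. TGFBI, a matrix protein, fell by 1.11 (SE 0.254) and the receptor gene TGFBR2 by 1.09 (SE 0.273). TGFB2 had 7.52, 9.80, 9.47 and 9.73 at 4 h, against 10.80, 10.95, 11.15 and 10.92 at 0 h (change -1.83, SE 0.429), and without 4 h replicate 1, the low array, it was -1.29 and no longer called (adjusted p = 0.109). CCN1, a matrix signal, stood at -1.31 (SE 0.367, adjusted p = 0.0248) and lost its call without 4 h replicates 1 or 3 or 0 h replicates 1 or 3 (-1.32 to -1.13). Of 17 bone matrix and osteoblast genes 3 rose. DCN, the proteoglycan decorin, rose by 1.67 (SE 0.414) and was not called without 0 h replicate 1 (1.38, adjusted p = 0.0816). The parathyroid hormone receptor gene PTH1R (1.30, SE 0.389) lost its call without any of 6 single arrays (4 h replicates 1, 3 and 4, 0 h replicates 1, 2 and 4, 0.842 to 1.29), and LOX, a collagen crosslinker (0.68, SE 0.199), without any of 5 (4 h replicates 2, 3 and 4, 0 h replicates 1 and 4, 0.603 to 0.660). Single members rose at low signal among 17 apoptosis regulators, 14 interferon response genes and 6 liver markers. The death receptor gene TNFRSF10A (1.29, SE 0.161) and the serum albumin gene ALB (1.03, SE 0.188) were detected on no 0 h array, with bounds of at least 1.07-fold and 1.24-fold higher, and the interferon gene IFI44L (0.95, SE 0.288) had overlapping groups and lost its call without any of 6 single arrays (4 h replicates 1, 2 and 4, 0 h replicates 1, 2 and 4, 0.696 to 0.933). Of 20 genes of energy metabolism 2 rose, PDK4 and TXNIP, and of 19 genes of insulin and FOXO signalling SGK1 rose and IRS1 fell.

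The same contrast in GRalpha cells, with their own 4 h and 0 h arrays, called 593 genes, 352 higher and 241 lower. Rises shared by both receptors numbered 109, which is 45.2% of the A477T rises and 31% of the GRalpha rises. Shared falls numbered 98, or 55.4% of the A477T falls and 40.7% of the GRalpha falls. The difference between the responses, tested as an interaction in the same limma model, was called for 178 genes (1.42%), with the A477T response above that of GRalpha for 71 (0.566%) and below it for 107 (0.853%). Of the 241 A477T rises 62 were larger than the GRalpha change and 16 smaller, while of the 177 falls 6 went lower than in GRalpha and none was called the other way. These genes were chosen by the A477T change that the difference itself contains. Their split therefore leans towards larger A477T changes by selection, unlike the 71 and 107 over all genes. Among the 178, 94 were not called in A477T cells, and 90 of those were called in GRalpha cells.

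**Figure D4:**
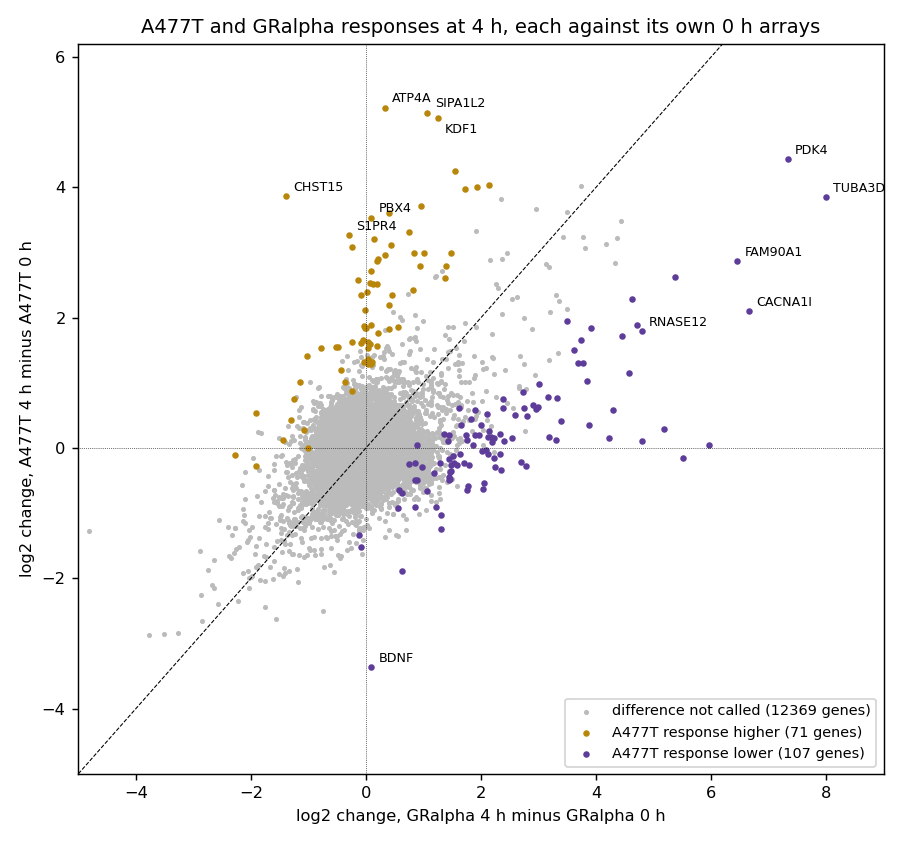
Log2 change at 4 h in A477T cells (vertical) against that in GRalpha cells (horizontal) for 12547 genes, each against its own 0 h arrays; gold points have a higher (71) and purple points a lower (107) A477T response by the interaction test, and the dashed line marks equal change. Gold points gather near 0 on the GRalpha axis and purple points to the right of the dashed line.

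Among the 5 highest differences in favour of A477T was that of CHST15. In GRalpha cells it had 5.84, 6.66, 6.34 and 5.52 at 4 h, against 7.24, 7.58, 7.28 and 7.83 at 0 h, and fell by 1.39 (adjusted p = 0.00811), so that the fitted responses differed by 5.26 (SE 0.511, adjusted p = 6.57e-12). CHST15 was the 1 gene that rose in A477T cells and fell in GRalpha cells. ATP4A moved by 0.32 in GRalpha cells (6.33, 5.24, 5.67 and 6.12 at 4 h, against 5.13, 5.84, 5.69 and 5.41 at 0 h), a difference of 4.90 (SE 0.538). SIPA1L2 rose by 1.07 in GRalpha cells, a difference of 4.08 (SE 0.392), and KDF1 by 1.25, a difference of 3.81 (SE 0.44). S1PR4, a receptor for sphingosine 1-phosphate, had 9.35, 8.84, 8.96 and 9.10 in A477T cells at 4 h, against 6.01, 5.24, 6.78 and 5.17 at 0 h (change 3.26, SE 0.312). In GRalpha cells it moved by -0.29, which left a difference of 3.55 (SE 0.441). These are fitted differences and not measured folds, since some groups had no array that detected the probe. That holds for CHST15 at 0 h in A477T cells, KDF1 at 0 h in both, ATP4A and SIPA1L2 at 0 h in GRalpha cells and S1PR4 at 4 h in GRalpha cells. In this group of genes the GRalpha arrays stayed near the background or below the A477T arrays with hormone.

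Other genes rose in both and by less in A477T cells. PDK4 reached 13.28, 12.60, 12.93 and 13.02 in GRalpha cells at 4 h, and the A477T change was smaller by 2.90 (SE 0.506, adjusted p = 7.12e-05). Its controls were near background in both, with detection on 1 of 4 A477T and 2 of 4 GRalpha arrays at 0 h. CACNA1I rose by 2.10 in A477T and 6.66 in GRalpha cells, a difference of -4.55 (SE 0.698), TUBA3D by 3.85 and 8.0, a difference of -4.15 (SE 0.47), and FAM90A1, which belongs to a family of near-identical copies, by 2.87 and 6.46, a difference of -3.59 (SE 0.454). RNASE12, of the ribonuclease A family, rose by 1.80 and 4.80, a difference of -3.0 (SE 0.486). These are fitted changes: in A477T cells FAM90A1 was at least 5.31-fold and RNASE12 at least 1.49-fold higher, since no 0 h array detected them, CACNA1I had the bound given above, and TUBA3D and RNASE12 were detected on no 0 h array of GRalpha cells. TXNIP differed by -2.74 (SE 0.66, adjusted p = 0.00991), LAD1 by -2.75 (SE 0.614) and PTH1R by -2.48 (SE 0.55). TSC22D3 rose by 2.67 in GRalpha cells by the tested probe. Its other probes gave differences of -2.37 and -2.50 between the responses. For the tested probe the difference of -1.72 (SE 0.496) was not called (adjusted p = 0.0618). It was called with the slide (-1.93) or the replicate number (-1.72) as a block and with the deposited log2 values (-1.37). It was also called without A477T 4 h replicate 4 (-1.89), GRalpha 4 h replicate 2 (-1.91) or GRalpha 0 h replicate 1 (-1.99), and its adjusted p ran between 0.00648 and 0.208. Of the 24 GR targets, 7 had a smaller A477T response by the test and none a larger one. Over all genes the A477T response was called lower for 0.853% and higher for 0.566%. The list was written with earlier results of these data known, so its count is no separate test.

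Of the falls, 6 were lower than in GRalpha cells by the test. BDNF moved by 0.09 in GRalpha cells, where the tested probe had 10.48, 10.41, 9.81 and 9.52 at 4 h, against 10.71, 9.83, 9.14 and 10.19 at 0 h, so that the A477T response was lower by 3.46 (SE 0.552, adjusted p = 1.17e-05). The other BDNF probes, which were dimmer, gave smaller differences, between -0.07 and -1.91. PLAUR, the urokinase receptor, fell by 1.25 (SE 0.233) in A477T cells and rose by 1.31 in GRalpha cells, the 1 gene with that pairing, which was singled out after its values were seen. DUSP1 differed by -1.49 (SE 0.365, adjusted p = 0.012), with a GRalpha change of 0.56 that was not called; without A477T 0 h replicate 3 or GRalpha 0 h replicate 3 the difference was -1.29 (adjusted p = 0.0656) and -1.23 (adjusted p = 0.0881). For other large falls the difference from GRalpha was not called. It was 0.91 (SE 0.49) for LIF, 0.67 (SE 0.961) for CCL2, 0.17 (SE 0.634) for PLAU and 0.62 (SE 0.397) for IRS1. Such intervals, about 2 SE either side, do not show that the receptors act alike on these genes.

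Set beside the other alleles, each against its own 0 h arrays, the A477T rises were called higher in 94 cases in GRgamma cells (39% of the A477T rises), 101 in 30iiB cells (41.9%) and 51 in E773R cells (21.2%). For the A477T falls the numbers were 79 (44.6%), 104 (58.8%) and 22 (12.4%). All genes called at 4 h came to 4.35% in GRgamma (2.96% higher, 1.39% lower), 4.42% in 30iiB (2.38% higher, 2.03% lower) and 1.14% in E773R cells (0.741% higher, 0.399% lower). As shares of the other lists, the shared rises were 25.3% of the GRgamma, 33.8% of the 30iiB and 54.8% of the E773R rises, and the shared falls 45.1%, 40.8% and 44%. Of the 241 A477T rises 40 were called higher in all 4 other alleles and 102 in none of them, and of the 177 falls 16 were called lower in all 4 and 52 in none. ATP4A stood at 0.80 in GRgamma, 0.75 in 30iiB and -0.21 in E773R cells, and S1PR4 at -0.71, -0.63 and 0.42. PDK4 stood at 5.87, 7.08 and 6.61 in the same order, all above its A477T change of 4.44. Only the difference from GRalpha was tested.

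Few genes differed between 4 h and 2 h. Against the 0 h arrays, which both times share, 236 genes were called at 2 h (1.88%, 0.980% higher and 0.901% lower), 418 at 4 h and 1161 at 24 h (9.25%, 4.63% higher and 4.62% lower). A direct comparison of the 4 h and 2 h arrays called 41 genes (0.327%), 34 higher (0.271%) and 7 lower (0.0558%) at 4 h, of which 31 were among the 241 rises and 6 among the 177 falls. The 4 outside both were KIF1A, NAV2, TRPV2 and RUNX2, of which the first 3 are named after their values were seen. With arrays scaled to the same median in place of quantiles the split was 3 higher and 4 lower, and with the compared groups alone limma called 0 genes (1084 at an unadjusted p under 0.05, 786 in the fit over all arrays). Only the 4 h arm was matched in duration to the ethanol arm.

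PBX4, a homeodomain factor, showed the largest further rise. It had 5.99 to 7.06 at 0 h, 7.55, 7.54, 7.84 and 8.33 at 2 h, 10.73, 9.33, 10.28 and 10.39 at 4 h, and 9.98 to 10.27 at 24 h. The step between 2 h and 4 h was 2.37 (SE 0.331), with no overlap of arrays. GRAMD4, with a GRAM domain, had 10.24, 10.92, 10.72 and 11.30 at 2 h and 12.66, 12.25, 12.30 and 12.63 at 4 h (difference 1.66, SE 0.229), and CYP4F22, a fatty acid hydroxylase of the skin barrier, had 6.83, 6.45, 6.45 and 6.16 at 2 h and 8.60, 8.37, 8.30 and 7.76 at 4 h (1.78, SE 0.316). NOSTRIN, which binds the endothelial nitric oxide synthase, was 1.72 higher at 4 h (SE 0.315), and CDH15, a muscle cadherin, 2.07 higher (SE 0.458). CDH15 lost its call without 4 h replicates 1 or 3 or 2 h replicates 1 or 2 (1.80 to 2.02, adjusted p up to 0.154). At 4 h, with no detection at 0 h, CYP4F22 was at least 4.87-fold and NOSTRIN at least 4.47-fold higher than the controls. Fitted against 0 h, CYP4F22 stood at 1.46, 3.25 and 6.27 at 2, 4 and 24 h and PBX4 at 1.16, 3.53 and 3.43, while NOSTRIN stood at 1.15, 2.87 and 1.74. The early genes SIPA1L2 (5.43, 5.15 and 4.53), PDK4 (4.52, 4.44 and 4.16) and TMEM100 (4.18, 4.03 and 4.57) stood near their 4 h value already at 2 h. The value of SIPA1L2 was lower at 24 h than at 2 h, a step that was not tested. FAM90A1 stood at 2.84, 2.87 and -0.14.

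Genes lower at 4 h than at 2 h included both IRS1 and the mineralocorticoid receptor gene NR3C2. Against 0 h, IRS1 and NR3C2 stood at -0.86 and 0.07 at 2 h. SERTAD4, RUNX2 and FRMD5 stood at -0.47, 0.63 and -0.08 there, and none of these 2 h values was called. NR3C2 had 9.57, 9.47, 9.20 and 9.05 at 2 h and 7.25, 7.89, 7.95 and 7.51 at 4 h (difference -1.67, SE 0.299), after 9.12 to 9.51 at 0 h. IRS1 had 9.46, 9.34, 9.13 and 9.06 at 2 h and 7.39, 7.84, 7.90 and 8.33 at 4 h (-1.39, SE 0.28), a call lost without 4 h replicate 1 (-1.23, adjusted p = 0.0526). SERTAD4 was lower by 1.68 (SE 0.297), RUNX2, a master factor of osteoblasts, by 1.65 (SE 0.349), and FRMD5, with a FERM domain, by 1.37 (SE 0.3). RUNX2 was not called against 0 h (-1.02, adjusted p = 0.116), though it was with the slide as a block (-1.35), with the deposited log2 values (-0.69) and without 4 h replicate 2 (-1.31), and its adjusted p there ran between 0.00217 and 0.738. Its step below 2 h lost the call without 4 h replicate 1 or 2 h replicates 1 or 2 (-1.52 to -1.21, adjusted p up to 0.191). FRMD5 lost it without 4 h replicates 1 or 4 or 2 h replicates 1 or 2 (-1.37 to -1.13, adjusted p up to 0.157). At 24 h, against 0 h, IRS1 stood at -0.59, NR3C2 at -0.70 and NR3C1 at -0.73, whereas CCL2 stood at -6.76 and LIF at -3.46.

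**Figure D5:**
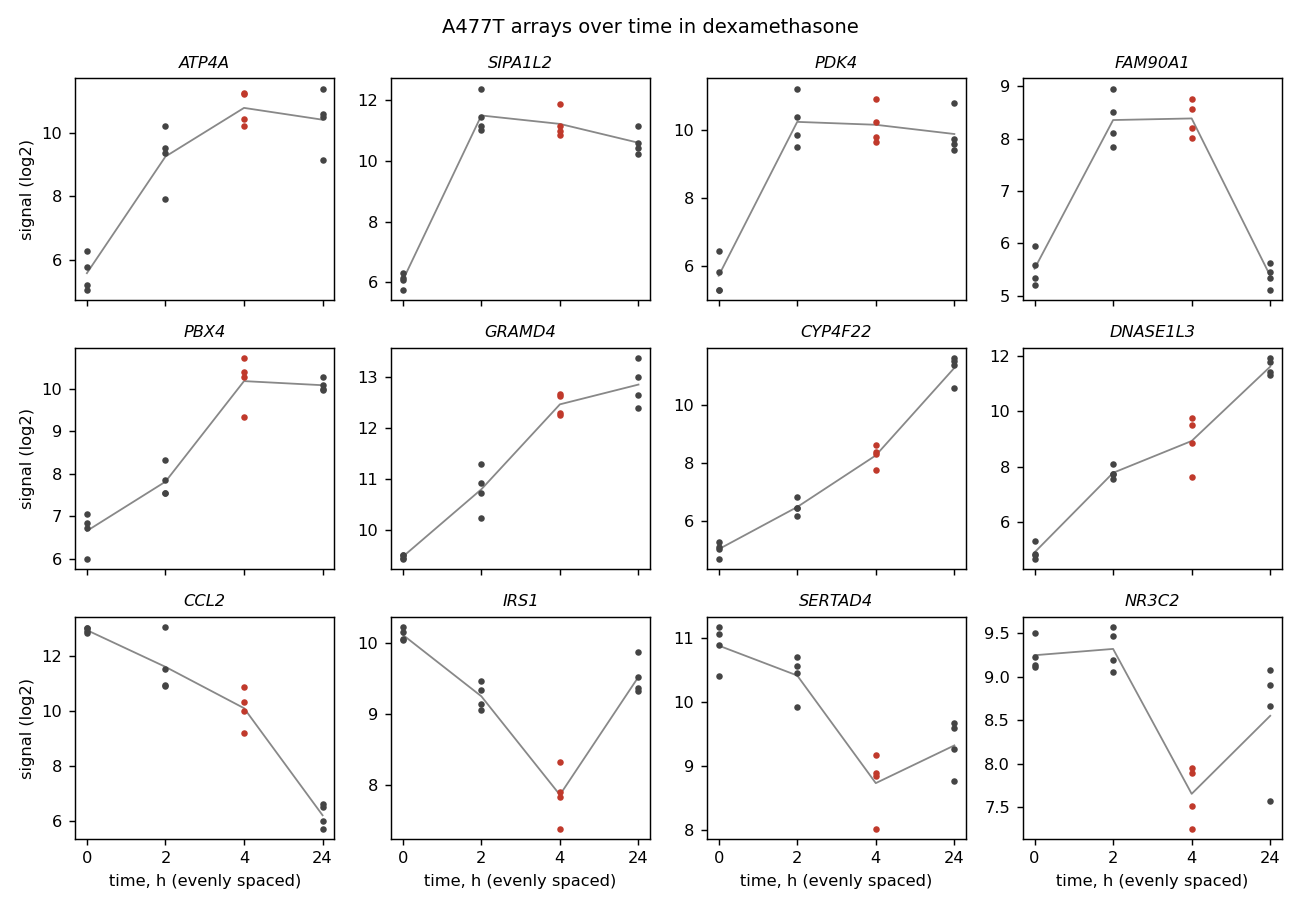
Normalized log2 signal (vertical, scale set per gene) of 12 genes on each A477T array at 0, 2, 4 and 24 h (horizontal, evenly spaced); points are arrays, with 4 h in red, and lines join the means. SIPA1L2 and PDK4 were already at their 4 h level at 2 h, PBX4 and GRAMD4 stepped up between 2 h and 4 h, CYP4F22 and DNASE1L3 went on to 24 h, and IRS1 and NR3C2 had their lowest means at 4 h.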

How the data were processed

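Bead array signals of 80 U2OS arrays were deposited by the authors as raw intensity values with a detection p-value for each probe, per the file headers, and as a second deposited table of normalized log2 values, whose normalization the sources used here do not state. The raw intensities were background-corrected and quantile-normalized over all 25204 probes with neqc (limma 3.58.1, R 4.3.3, offset 16). Probes with 1 gene symbol and a detection p under 0.05 on at least 4 arrays were kept (15392), and the brightest probe stood for each of 12547 genes. A limma fit of 20 group means gave the 4 h response, its difference from GRalpha and 4 h against 2 h, with Benjamini-Hochberg adjusted p under 0.05 as the threshold. Named genes were the 12 largest rises and falls whose arrays did not overlap, up to 4 called members of each gene list, a fixed set of receptor target genes and the 5 largest genes in each direction of the other comparisons. Members, lists and this rule were chosen with earlier results of these data known. Where no array of a group detected a probe, its fold is a bound taken from the lowest detected signal of each array. Precision is limited by how many arrays there are. The tests were checked on simulated data. Alternatives changed the background correction, scaling, detection filter, slide or replicate block, array set and value table, or left out single arrays; the quantiles over kept probes and the values within slides were chosen after seeing the data.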

Additional observations from a re-analysis of the deposited data

Results flagged for a closer look

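Of 152 groups of 4 arrays examined for a single distant array, 5 had one, and chance gives about 1 in 20. Without hormone, replicate 3 held 8.60 for OR7A5, against 7.50 to 7.68 on the other controls, and 9.06 for PDE4B, against 8.76 to 8.79. At 4 h TGFB2 stood at 7.52 in replicate 1, against 9.47 to 9.80, NR3C1 at 4.92 in replicate 2, against 5.90 to 6.01, and KLF9 at 11.95 in replicate 4, against 11.64 to 11.69.

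The A477T response at 4 h differed from the GRalpha response, by the interaction test in limma, for 23 of the 76 genes named by rule. Over all genes tested that difference was called for 178 (1.42%). The rule itself named the 5 highest and the 5 lowest of these differences among genes called in A477T cells. The count of 23 is therefore partly fixed by the naming. The A477T change was higher by 4.90 for ATP4A, 4.08 for SIPA1L2, 3.81 for KDF1, 2.70 for LYPD6B, 1.88 for TMEM100, 2.08 for ASPHD2, 2.26 for PIWIL1 and 5.26 for CHST15. It was also higher by 3.55 for S1PR4, 3.44 for PBX4, 2.68 for NOSTRIN, 1.97 for GRAMD4 and 1.20 for TNFRSF10A. For TMEM100 the mean levels at 4 h were alike, 12.56 in A477T and 12.42 in GRalpha cells. Its levels differed at 0 h, with 8.53 in A477T and 10.27 in GRalpha cells. The difference was -2.90 for PDK4, -4.15 for TUBA3D, -3.46 for BDNF, -2.75 for LAD1, -2.74 for TXNIP, -1.49 for DUSP1 and -2.48 for PTH1R. It was -4.55 for CACNA1I, -3.59 for FAM90A1 and -3.0 for RNASE12. With arrays scaled to the same median the differences of TMEM100 (1.69, adjusted p = 0.2), PIWIL1 (1.58, adjusted p = 0.101), TNFRSF10A (1.03, adjusted p = 0.999) and DUSP1 (-1.83, adjusted p = 0.273) were not called, and that of DUSP1 was also lost with the arrays of the compared groups alone (adjusted p = 0.225). NOSTRIN and TNFRSF10A were detected on no GRalpha array at 4 h or 0 h, so their differences are fitted values.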

How the results depend on the processing

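No called change of a named gene changed sign under the alternatives that were run. Values that were not called did: the 4 h responses of KLF9 and PER1 and 19 of the differences from GRalpha. With arrays scaled to the same median, under which the median change of all genes was -0.13 in place of -0.00901, 273 genes were called at 4 h, 136 higher and 137 lower (49.8% higher, against 57.7%), and 15 of the 76 named genes lost their call (TXNIP, SGK1, DUSP5, ZFP36, SOCS1, DUSP1, IL1B, DCN, PTH1R, LOX, TNFRSF10A, IFI44L, HSPA1B, KCNJ2 and ALB). Under that scaling the difference from GRalpha was called for 93 genes, 28 higher and 65 lower (30.1% higher, against 39.9%), and 4 h against 2 h for 7, 3 higher and 4 lower (42.9% higher, against 82.9%). The deposited log2 table gave 906 calls at 4 h, 472 higher and 434 lower, and 132 for 4 h against 2 h, 97 higher and 35 lower. With the slide as a block 267 genes fell at 4 h, and 11 were lower at 4 h than at 2 h. Detection on at least 40 arrays left 37 differences above GRalpha and 23 genes for 4 h against 2 h, 17 of them higher. CACNA1I lost its call without background correction (0.88, adjusted p = 0.161). With the arrays of the compared groups only, 310 genes were called at 4 h, 282 of them among the 418, and 12 of the 76 lost their call (NUAK2, DUSP5, DUSP1, IL1B, IER2, TGFB2, DCN, PTH1R, LOX, GADD45B, IFI44L and ADRA1B). In that setting limma called 0 genes between 4 h and 2 h, 0 higher and 0 lower (1084 at an unadjusted p under 0.05). The cause of these shifts was not tested.

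Leaving out single arrays gave 352 to 380 calls at 4 h, 205 to 229 higher and 124 to 155 lower. It gave 139 to 188 for the difference from GRalpha, 57 to 72 higher and 80 to 118 lower, and 19 to 40 for 4 h against 2 h, 15 to 32 higher and 2 to 8 lower. The deviations of same-numbered replicates correlated at 0.317, -0.227, -0.107 and 0.0214 in A477T cells at 4 h and 0 h, and at 0.473, 0.419, 0.15 and -0.000732 in GRalpha cells. Since not every pair was over 0.1, the numbers were not taken to pair samples, although 2 of the 4 GRalpha arrays correlated best with their own number. With the replicate block 468 genes were called at 4 h, 200 for the difference and 55 for 4 h against 2 h, 11 of them lower. That block called the TSC22D3 response (adjusted p = 0.0429) and the TSC22D3 and ADRA1B differences (adjusted p = 0.0081 and 0.0243), and lost the IFI44L response (adjusted p = 0.0558). Low signals limit precision: for 72 rises no control array gave a detected value.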
